A study of Homo sapiens with 4 samples.

Results

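The brakes of the G1 phase were examined in human H9 embryonic stem cells. The group comprised 10 genes chosen by name from the 60671 genes of the table: the CIP/KIP inhibitors CDKN1A and CDKN1B, the INK4 inhibitors CDKN2A, CDKN2B, CDKN2C and CDKN2D, the phosphatase gene CDKN3, and the pocket protein genes RB1, RBL1 and RBL2. All 10 had a row of their own. RNA with a poly(A) tail was measured in 4 libraries. The first group was 2 libraries of H9 cells labelled as control. The second group was 2 libraries of H9 cells with the genotype CFIm25 KO plus 3Flag-CFIm25 overexpression, called KO+OE here. The labels name the edit KO in one place and KD in another. CFIm25, encoded by NUDT21, is a subunit of a factor that helps to set where an mRNA is cut and polyadenylated. All cells were grown in mTeSR medium without treatment. As the study describes the cells, the edited protein was shortened and reduced and not lost, lentivirus put the tagged protein back, and the re-expressing cells came from a single edited clone. The labels do not say whether the replicates were separate cultures, so p-values measure only the spread between these libraries. Edited cells without re-expression were not analysed here, and the comparison asks how far the G1 brakes of the re-expressing cells stood from those of control cells.

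Cyclin-dependent kinases drive the cell from G1 into S phase by phosphorylating the pocket proteins, which otherwise hold the E2F transcription factors in check. The INK4 proteins bind CDK4 and CDK6, and the CIP/KIP proteins bind cyclin-CDK complexes more broadly, including those of CDK2. Pluripotent stem cells are known for a short G1 phase. Much of the control of these brakes acts on the protein, by phosphorylation and degradation, and is not seen in RNA.

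The data show a group led by a single gene and no detectable difference between the cell lines. CDKN1A held 90.4% to 91.2% of the summed level of the 10 genes. CDKN3, CDKN1B, CDKN2D, CDKN2A and RBL2 followed at mean levels between 1.38 and 6.0 TPM, and RB1, RBL1, CDKN2B and CDKN2C lay below 1 TPM. TPM gives the share of transcripts of a gene, corrected for transcript length and scaled to a common total. It lets levels of different genes be set side by side. No label names the unit, which is read here from the near-equal sums of the libraries. Such sums do not show a correction for transcript length, so comparisons between genes rest on this reading. None of the 6 genes with a mean above 1 TPM passed an adjusted p of 0.05. The plot of levels by library shows these values.

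**Figure D1:**
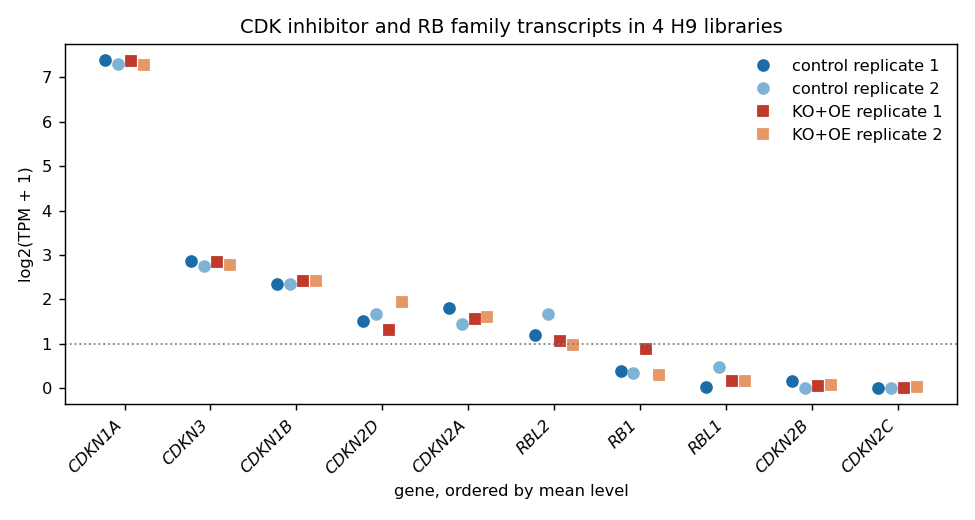
Level of each gene as log2(TPM + 1) (vertical axis) for the 10 genes ordered by their mean (horizontal axis); circles are the control and squares the KO+OE libraries, and the dotted line marks 1 TPM. CDKN1A sits far above all others. The libraries of both groups lie close together except for CDKN2D, RBL2, RB1, RBL1 and, less so, CDKN2A.

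Promoter sequences were searched for motifs of the factors that pocket proteins act through, and the stretches with an E2F-type motif or a cell cycle homology region are printed here. RefSeq windows on GRCh38.p14, each reaching from before to just after a transcript start, were found for all 10 genes. That of RB1 lies at an internal start of the gene, so the main RB1 promoter was not examined. The only window of CDKN1A, from 36678464 to 36678763, also lies within the span of its gene. The upstream end of CDKN1A was therefore not examined either. An E2F-type motif was searched as TTTCCCGC, TTTCGCGC, TTTGCCGC or TTTGGCGC, and the cell cycle homology region, an element of genes bound by pocket protein complexes, as TTTGAA, each on both strands. CCAAT, a box found near many starts, was searched in the same way. These were present in 3.31%, 15.2% and 34.6% of the 35116 RefSeq windows, which have the same length. Among the 10 genes, the E2F-type motif was found in RBL1, where 2 copies lie 26 and 16 bases before the start. TTTGAA was found in RBL2, 24 bases after a start, and in CDKN3 as its reverse complement, 170 bases before the start. CCAAT was found in windows of CDKN1B, CDKN3, CDKN2C, CDKN2D and RBL2. A match describes letters only, and the absence of one says nothing about binding. The windows are given 5′ to 3′ along the gene, with the motifs in capitals.
RBL1 (chr20:37095995-37096024, minus strand): tTTTCGCGCgcTTTGGCGCaggtggttgtg
RBL2 (chr16:53434483-53434512, plus strand): ggcgcttcgccgTTTGAAtggctgcgggcc
CDKN3 (chr14:54396825-54396854, plus strand): tcccgcgcgtctTTCAAAggtcttctagga

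The libraries were alike in the number of genes that reached 1 TPM, 12179 to 12332. Their values summed to 986853 to 987078, which the scaling to a common total fixes. Mitochondrial genes held 21.0% and 21.1% of the sum in control libraries against 21.6% and 22.1% in KO+OE libraries. Both KO+OE libraries were higher in this share. Read counts were not used here, as TPM holds none, and depth is therefore unknown. The labelled cell type was checked with markers. The 7 pluripotency markers summed to 3183 to 3218 TPM in every library. Of the 17 markers of other cells, 11 were at 0.32 TPM or less in every library, SOX17 and LUM at 0 throughout. THY1, COL1A1, COL1A2, NES, GATA6 and TBX6 were above 1 TPM in every library, and their part in the levels was not tested. THY1 also marks pluripotent stem cells. NUDT21, the edited gene, stood at 161 and 152 TPM in control libraries against 162 and 157 TPM in KO+OE libraries. Its RNA did not tell the groups apart (log2 fold change 0.03, limma adjusted p = 0.980; -0.01 without control replicate 2).

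The CIP/KIP inhibitors were compared first. CDKN1A (ENSG00000124762) encodes p21, an inhibitor induced in response to DNA damage, and lies on chromosome 6 from 36676463 to 36687332 in GRCh38.p14. CDKN1A stood at 166.28 and 157.34 TPM in control libraries against 165.47 and 154.59 TPM in KO+OE libraries. Replicate 1 was the higher library in both groups, and the groups overlapped. The level placed CDKN1A above 98.9% of all genes of the table. Its group means were 162 ± 6.32 and 160 ± 7.69 TPM (SD, n = 2 each), a log2 fold change of -0.02 with a standard error of 0.05 (limma adjusted p = 0.990). The 95% confidence interval allowed a level in KO+OE from 0.902 to 1.08 times that in control. The sign was carried by single libraries: it became 0.02 without control replicate 1 and 0.03 without KO+OE replicate 2.

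CDKN1B (ENSG00000111276) encodes p27, which the SCF-SKP2 ubiquitin ligase marks for degradation as cells enter S phase. It lies on chromosome 12 from 12717368 to 12722369. CDKN1B stood at 4.06 and 4.11 TPM in control libraries against 4.29 and 4.30 TPM in KO+OE libraries. Both KO+OE libraries were higher than both control libraries, and the gap was small. The replicates differed by 0.014 and 0.003 on the log2(TPM + 1) scale in control and KO+OE. The mean of both differences had a median of 0.163 over the 3392 genes of 3 to 10 TPM. Group means were 4.08 ± 0.0354 and 4.29 ± 0.00707 TPM (SD, n = 2 each). On the log2 scale KO+OE was 0.06 above control (95% confidence interval -0.24 to 0.35, limma adjusted p = 0.987). CDKN1C, the third gene of this family, which encodes p57, is not one of the 10 genes. CDKN1C stood at 22.96 and 28.23 TPM in control libraries against 28.75 and 24.25 TPM in KO+OE libraries, between the other two.

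The INK4 inhibitors were low. CDKN2A (ENSG00000147889) encodes p16 and, from another first exon and reading frame, p14ARF; the deposited value does not separate these transcripts. It is on chromosome 9, minus strand, from 21967752 to 21995324. CDKN2A stood at 2.49 and 1.72 TPM in control libraries against 1.93 and 2.03 TPM in KO+OE libraries. The KO+OE libraries lay between the control libraries. The difference was -0.05 on the log2 scale (95% confidence interval -0.53 to 0.43, limma adjusted p = 0.990), and it was 0.13 without control replicate 1.

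CDKN2D (ENSG00000129355) encodes p19, and lies on chromosome 19 from 10566460 to 10568979. CDKN2D stood at 1.84 and 2.20 TPM in control libraries against 1.47 and 2.81 TPM in KO+OE libraries. The KO+OE libraries were the lowest and the highest of the 4. Their difference on the log2(TPM + 1) scale was 0.625, and that of the control libraries was 0.172. The mean of the control and KO+OE replicate differences had a median of 0.223 over the 3396 genes with a mean of 1 to 3 TPM. That median compares with the mean of both CDKN2D values and not with 0.625 alone. Between the groups the log2 fold change was 0.03 (95% confidence interval -0.62 to 0.67, limma adjusted p = 0.992). It took either sign with a library left out, -0.06 without control replicate 1, -0.29 when KO+OE replicate 2 was dropped and 0.34 when KO+OE replicate 1 was.

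CDKN2B (ENSG00000147883), which encodes p15, a target of TGF-beta signalling, and CDKN2C (ENSG00000123080), which encodes p18, were at the bottom of the group. CDKN2B stood at 0.11 and 0 TPM in control libraries against 0.03 and 0.05 TPM in KO+OE libraries. CDKN2C had a value above 0 only in KO+OE replicate 2, at 0.02 TPM. Neither was tested, because the fit took only genes whose mean over the 4 libraries reached 1 TPM. A listed 0 is not read here as absence, since genes that most cells use were also listed below 1 TPM. BMI1 and SUZ12, which encode core Polycomb proteins, were listed at no more than 0.13 and 0.62 TPM in any library.

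The 4 INK4 genes summed to 4.44 and 3.92 TPM in control libraries against 3.43 and 4.91 TPM in KO+OE libraries. CDK4, the kinase they bind, stood at 207.59 and 194.10 TPM in control libraries against 194.64 and 201.89 TPM in KO+OE libraries, so that its RNA was 41.1 to 56.7 times that of the 4 inhibitors together. Its log2 fold change was -0.02 (95% confidence interval -0.14 to 0.10, limma adjusted p = 0.988). CDK6, the other kinase of these inhibitors, was listed at 0.50 to 0.96 TPM. CDK2, which the CIP/KIP proteins bind, was listed at 11.46 to 14.80 TPM, and the summed CDKN1A and CDKN1B level was 10.9 to 13.9 times that of CDK2. These are ratios of RNA, and they do not give the amounts of protein.

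CDKN3 (ENSG00000100526) encodes a phosphatase that acts on CDK2 and is expressed mainly in dividing cells. It lies on chromosome 14 from 54397007 to 54420218. CDKN3 stood at 6.33 and 5.69 TPM in control libraries against 6.16 and 5.82 TPM in KO+OE libraries. The KO+OE libraries lay between the control libraries. Its log2 fold change was -0.0030 (95% confidence interval -0.29 to 0.28, limma adjusted p = 0.997). The sign turned with the scaling, to 0.0083 with median ratios and 0.0065 with quantile normalization, and with the library left out: it was -0.07 when control replicate 2 was dropped, 0.06 when control replicate 1 was dropped and 0.03 when KO+OE replicate 2 was dropped.

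The pocket proteins varied between libraries, RBL2 by 2.25-fold, RB1 by 3.77-fold and RBL1 by 20.0-fold from the lowest to the highest library. RBL2 (ENSG00000103479) encodes p130, which binds E2F4 in resting cells as part of the DREAM complex. It lies on chromosome 16 from 53434471 to 53491648. RBL2 stood at 1.30 and 2.18 TPM in control libraries against 1.07 and 0.97 TPM in KO+OE libraries. Both KO+OE libraries were lower than both control libraries, but the control libraries differed from each other by more than the lower of them differed from KO+OE. The control replicates differed by 0.467 and the KO+OE replicates by 0.071 on the log2(TPM + 1) scale. For genes of 1 to 3 TPM the mean of the control and KO+OE replicate differences had a median of 0.223. That median compares with the mean of both RBL2 values and not with 0.467 alone. Group means were 1.74 ± 0.622 and 1.02 ± 0.0707 TPM (SD, n = 2 each). For RBL2 the log2 fold change was -0.42 with a standard error of 0.22, a 95% confidence interval of -1.0 to 0.15 and a limma adjusted p = 0.932. The value depended on control replicate 2, without which it was -0.19, and on control replicate 1, without which it was -0.66. It also depended on the pseudocount added before taking logarithms, with -0.68 for a pseudocount of 0.1 and -0.16 for a pseudocount of 5.

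RB1 (ENSG00000139687), the retinoblastoma gene, and RBL1 (ENSG00000080839), which encodes p107, were listed below 1 TPM and were not tested. RB1 lies on chromosome 13 from 48303751 to 48481890. RB1 stood at 0.31 and 0.26 TPM in control libraries against 0.83 and 0.22 TPM in KO+OE libraries. KO+OE replicate 1 stood above the other 3 libraries, and the groups overlapped. RBL1 is on chromosome 20, minus strand, from 36996349 to 37095997. RBL1 stood at 0.02 and 0.40 TPM in control libraries against 0.11 TPM in both KO+OE libraries. The control libraries were the lowest and the highest. The 3 pocket protein genes summed to 1.63 and 2.84 TPM in control libraries against 2.01 and 1.30 TPM in KO+OE libraries, so the sums overlapped as well.

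The order of the levels was then set against the spread over libraries. The 4 libraries of CDKN1A, of CDKN3 and of CDKN1B did not overlap with those of the next gene in the order, nor did those of RBL2 with those of RB1. CDKN2D, CDKN2A and RBL2 overlapped with their neighbours and did not differ beyond their spread, and the same held from RB1 down to CDKN2C. Without CDKN1A, the other 9 genes together came to 15.9 to 16.6 TPM in each library.

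The low values were set beside the composition of the transcripts. RB1 has the lowest G and C content of the 10, 37.1% over a canonical transcript of 4768 bases, and RBL1, with a transcript of 5686 bases, is the next lowest. CDKN1A has 57.3% over 2117 bases. Among protein-coding genes with a canonical transcript under 40% G and C, 34.7% to 36.4% were listed at 1 TPM or more, against 69.9% to 70.4% of those at 60% or above. Across the 10 genes, which share the same libraries, Spearman's correlation between mean level and G and C content was 0.37, and across all 19762 protein-coding genes it was 0.29. The part of composition in the level of single genes was not tested.

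**Figure D2:**
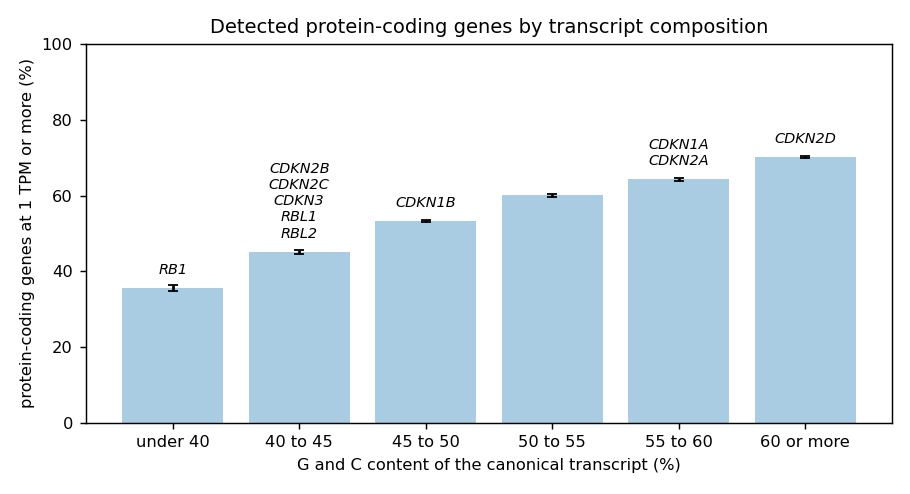
Share of protein-coding genes listed at 1 TPM or more (vertical axis, %) by the G and C content of the canonical transcript (horizontal axis, %); bars are the midpoint and whiskers the range over the 4 libraries, and names give the bin of each of the 10 genes. The share rises from 34.7% to 36.4% in the lowest bin, which holds RB1, to 69.9% to 70.4% in the highest, which holds CDKN2D.

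Reads of neighbouring genes could also enter these values. No source used here says whether the counting used strand. In GENCODE release 44 on GRCh37, 8 of the 10 genes overlap another gene, and 6 of 25 such pairs share bases within exons. RBL2 shares 609 exonic bases with AKTIP on the opposite strand, and AKTIP was listed at 1.71 to 2.09 TPM, so the level of RBL2 is uncertain. RBL1 shares 213 exonic bases with an unnamed antisense RNA (ENSG00000269846), which was listed at 0.07 to 0.36 TPM, a level like that of RBL1. CDKN2A shares 593 exonic bases with CDKN2B-AS1, which was listed at no more than 0.03 TPM. CDKN1A shares 146 exonic bases with the antisense RNA DINOL, which was listed at no more than 0.26 TPM. AL359922.1 (ENSG00000264545), an antisense RNA that spans CDKN2A and CDKN2B without sharing exonic bases with either, stood at 0 and 1.93 TPM in control libraries against 0 and 2.76 TPM in KO+OE libraries, so that replicate 2 was the higher library in both groups. GPR19 overlaps CDKN1B without shared exonic bases and was listed at 2.14 to 4.36 TPM. Of the genes with like names, CDKN2A-DT was at 0 in all 4 libraries, RB1-DT at no more than 0.33 TPM, CDKN2AIP at 0.34 to 0.58 TPM and CDKN2AIPNL at 48.23 to 52.03 TPM. Within the families, the canonical transcripts of CDKN2A and CDKN2B share an identical run of 80 bases, so some reads could fit either gene, and no other pair shares more than 15.

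The comparison of the groups was read against all genes tested. Of the 10 genes, 6 reached a mean of 1 TPM and entered the limma fit on log2(TPM + 1) among 12319 genes. At an adjusted p under 0.05, 0 of the 6 passed, against 0.00812% of all genes tested, and at an unadjusted p under 0.05 again 0 of the 6 passed, against 5.33% of all genes. The groups did not overlap for 2 of the 6, CDKN1B and RBL2, against 34.1% of all genes. By direction, 1 of the 6 was higher without overlap, against 14.5% of all genes, and 1 lower, against 19.6%. The log2 fold change was above 0 for 2 and below 0 for 4 of them. Their median was -0.01, and that of all genes tested was -0.012. On the log2(TPM + 1) scale the 95% confidence interval lay within 2-fold in either direction for all 6, with RBL2 at the edge. The same held for 92.6% of all genes. This scale understates fold changes of low genes, so these intervals do not bound the ratio of their TPM values. When the filter on low values was dropped, all 10 genes entered the fit, none had an unadjusted p under 0.05 and the lowest limma adjusted p was 0.873. In that fit the log2 fold change was 0.22 for RB1 (95% confidence interval -0.42 to 0.86) and -0.11 for RBL1 (-0.59 to 0.38), and those of CDKN2B and CDKN2C were -0.02 and 0.01. For RBL2 the 95% confidence interval without the filter was -1.07 to 0.22, which reaches beyond 2-fold. In bulk RNA, fewer cells with a transcript and less of it per cell cannot be told apart.

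**Figure D3:**
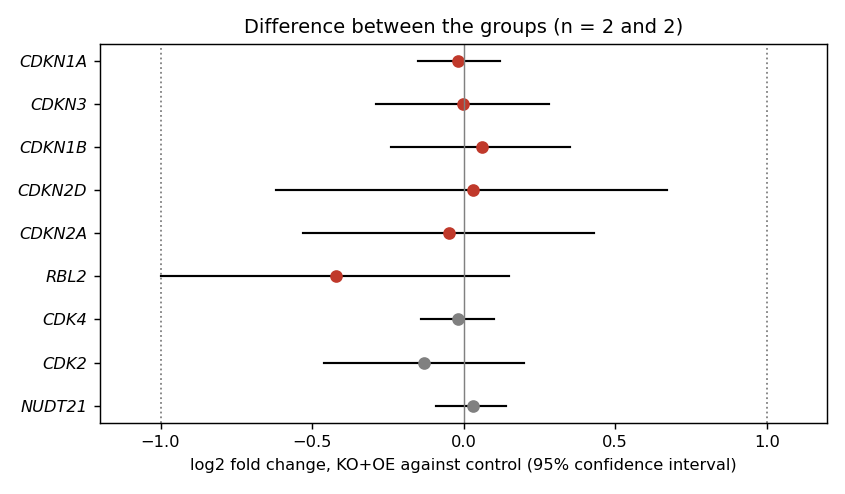
Log2 fold change of KO+OE against control (horizontal axis) with its 95% confidence interval from limma for the 6 tested genes (red) and for CDK4, CDK2 and NUDT21 (grey); dotted lines mark 2-fold in either direction. Every interval includes 0, and that of RBL2 runs widest to the left, from -1.0 to 0.15. All values are on the log2(TPM + 1) scale.

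The rest of the pathway was described with lists chosen by role. Among cyclins and kinases of G1, 0 of 10 tested genes passed an adjusted p of 0.05 in either direction. The median log2 fold change was -0.023, with 3 above and 7 below 0. CCND1, the cyclin that activates CDK4, had the highest value, 0.11, which was 0.01 without KO+OE replicate 1 and 0.20 when KO+OE replicate 2 was dropped. CDK2 had the lowest, -0.13, which was 0.03 without KO+OE replicate 2 and -0.28 when KO+OE replicate 1 was dropped. Mean levels in this list had a median of 14.0 TPM.

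The E2F and DP factors, which the pocket proteins bind, had a median log2 fold change of 0.086 over 9 tested genes, 0 of which passed. E2F5, a partner of p130 and p107, stood at 7.58 and 7.0 TPM in control libraries against 9.26 and 9.40 TPM in KO+OE libraries. Both KO+OE libraries were higher. Its log2 fold change was 0.32 with an unadjusted p of 0.0194 and an adjusted p = 0.928 from limma. E2F6, a repressor that does not bind pocket proteins, stood at 7.89 and 7.32 TPM in control libraries against 5.99 and 6.55 TPM in KO+OE libraries, a log2 fold change of -0.24 (limma adjusted p = 0.931).

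Of a list of DREAM and MuvB genes, which also held MYBL2, FOXM1 and the kinase gene DYRK1A, 6 were tested and 0 passed, with a median of 0.018. LIN37, a MuvB subunit that the DREAM complex needs for repression, stood at 8.12 and 8.64 TPM in control libraries against 12.33 and 11.82 TPM in KO+OE libraries. Both KO+OE libraries were higher, and the replicates were close. Its log2 fold change was 0.48 (95% confidence interval 0.26 to 0.70), with an unadjusted p of 0.00267 and an adjusted p = 0.705 from limma. It ran from 0.44 to 0.52 with a library left out, and its limma adjusted p from 0.664 to 0.873 over the other alternatives. LIN37 was named because its unadjusted p was under 0.05. Its interval, close replicates and narrow range come from the same values and are no independent support. No list reported here held more than 1 gene with an unadjusted p under 0.05 from limma, against 5.33% of all genes tested. LIN9 and LIN54, subunits of the same MuvB core, were too low for the filter and were not tested. LIN9 stood at 0.32 and 0.23 TPM in control libraries against 0.15 and 0.16 TPM in KO+OE libraries. LIN54 stood at 0.34 and 0.38 TPM in control libraries against 0.21 and 0.25 TPM in KO+OE libraries. Both KO+OE libraries were lower for either gene, and these 2 genes were picked once their values were known. RBBP4 of the same list was higher without overlap, at 63.70 and 57.03 TPM in control libraries against 67.50 and 67.24 TPM in KO+OE libraries. Over all genes tested, 19.6% were lower and 14.5% higher without overlap. LIN9 and LIN54 are not among those genes, and no such share is given for genes at their level. DYRK1A, the kinase that assembles DREAM, had the lowest value of the list, -0.08, which was 0.02 without KO+OE replicate 2 and -0.18 when KO+OE replicate 1 was dropped.

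The target genes of E2F at S phase entry were all 15 tested, 0 passed and their median was 0.016, with 8 above and 7 below 0. RRM2, a subunit of ribonucleotide reductase, stood at 30.32 and 33.25 TPM in control libraries against 26.30 and 28.53 TPM in KO+OE libraries. Its log2 fold change was -0.21 (unadjusted p of 0.0433, limma adjusted p = 0.928). MCM4, a subunit of the replicative helicase, was the highest with 0.18, a value that fell to 0.03 when KO+OE replicate 1 was dropped and rose to 0.34 when KO+OE replicate 2 was.

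The ligase subunits and cofactors that turn over CDK inhibitors had a median of 0.002 over 10 tested genes, 5 above and 5 below 0, and 0 passed. SKP2, the receptor for p27, was listed at 33.70 to 35.62 TPM and CKS1B, its cofactor, at 406.14 to 419.06 TPM. DTL, the receptor that directs p21 to degradation in S phase, had a log2 fold change of -0.33 (limma adjusted p = 0.938). Without KO+OE replicate 1 the value was -0.05, and with KO+OE replicate 2 dropped it was -0.60. CUL1, the scaffold of the SCF ligase, was the highest with 0.09, which was -0.05 without control replicate 1 and 0.23 when control replicate 2 was dropped.

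Polycomb genes and other repressors of the CDKN2A and CDKN2B locus had a median of -0.024 over 6 tested genes, 3 above and 3 below 0, and 0 passed. ID1 stood at 141.04 and 143.63 TPM in control libraries against 128.27 and 130.88 TPM in KO+OE libraries, a log2 fold change of -0.13 (unadjusted p of 0.0139, limma adjusted p = 0.928). CBX7 had the lowest value, -0.16, which was 0.14 without control replicate 2 and -0.46 when control replicate 1 was dropped. EED had the highest, 0.05, which was -0.08 without KO+OE replicate 1 and 0.19 when KO+OE replicate 2 was dropped. PHC1, a Polycomb gene, was listed at 244.64 to 264.05 TPM.

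**Figure D4:**
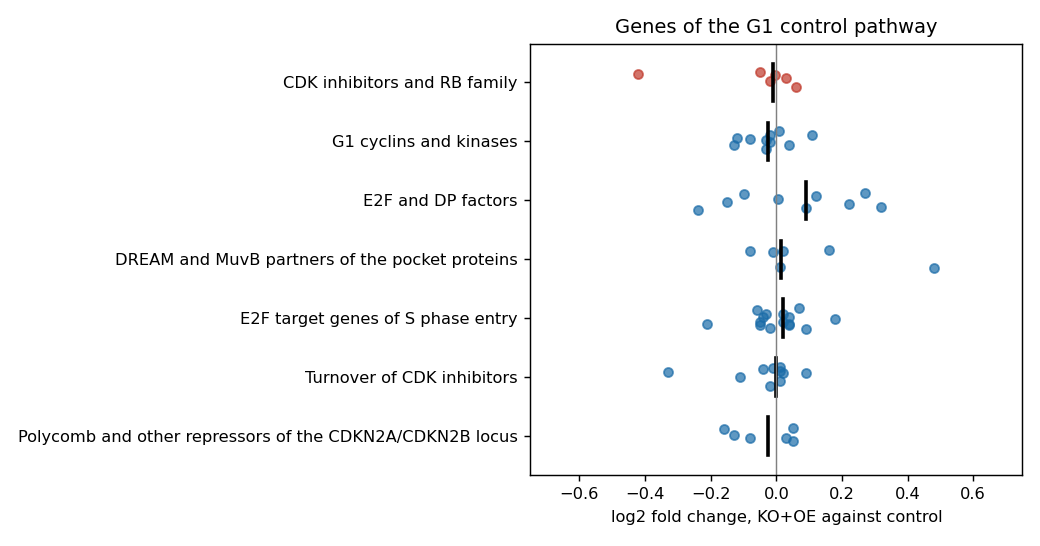
Log2 fold change of KO+OE against control (horizontal axis) for each tested gene of the CDK inhibitor and RB family (red) and of 6 lists of the G1 pathway (blue); black bars are medians, and points are spread vertically only to be visible. All medians lie between -0.024 and 0.086, with LIN37 at 0.48 and RBL2 at -0.42 as the outermost genes.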

How the data were processed

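RNA-seq of polyadenylated RNA from 4 libraries of H9 cells was used. HISAT2, featureCounts, Subread, DESeq2 and the build hg38 are named in the submitters' processing notes, without version or role. The authors deposited 1 table, whose values are read as TPM because the column sums, 986853 to 987078, are nearly equal and the values hold decimals. Since the totals are fixed, abundant genes lower the values of the rest. No count test was used, and depth and counting error are unknown. The number of unused per-sample columns was 0.

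Groups and replicate numbers came from the sample titles. Genes whose mean reached 1 TPM were compared with limma 3.58.1 in R 4.3.3 on log2(TPM + 1), with group as the only term, a mean-dependent prior and a two-sided test, adjusted by Benjamini-Hochberg over all 12319 genes tested. Fold changes on this scale understate those of low genes. The fit was tested on simulated data. The 10 genes and the lists were chosen with earlier results of these data known. Genes named are the 10, CDKN1C, NUDT21, CDK2, CDK4 and CDK6, overlapping or like-named transcripts, and of each list the highest, the lowest and those with an unadjusted p under 0.05. Of the lists, 1 is not reported here. Other genes were picked once their values were known. Positions and promoters came from RefSeq (GRCh38.p14), and transcript length, composition and overlaps from GENCODE release 44 by Ensembl identifier. Alternatives are given in the closing section. Python 3.11.15, pandas 2.3.3, numpy 2.4.6, scipy 1.17.1 and matplotlib 3.10.9 were used.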

Additional observations from a re-analysis of the deposited data

How the results depend on the processing

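For the 6 tested genes, 42 of 44 values under alternatives that kept all libraries had the direction and the side of the threshold reported. The exceptions were CDKN3, 0.0083 with median ratios and 0.0065 with quantile normalization. The lowest limma adjusted p of any of the 6 under any alternative was 0.871, and none was called. CDKN1B, CDKN2A, CDKN2D and RBL2 were not in the fit when the minimum mean was 5 TPM. With a library left out, the lone library of its group is assumed to vary like the others. The log2 fold change then ran from -0.06 to 0.03 for CDKN1A (0.02 without control replicate 1, 0.03 without KO+OE replicate 2), 0.05 to 0.07 for CDKN1B, -0.23 to 0.13 for CDKN2A (0.13 without control replicate 1), -0.29 to 0.34 for CDKN2D (-0.06 without control replicate 1, -0.29 without KO+OE replicate 2), -0.07 to 0.06 for CDKN3 (0.06 without control replicate 1, 0.03 without KO+OE replicate 2), -0.66 to -0.19 for RBL2 and -0.01 to 0.07 for NUDT21 (-0.01 without control replicate 2).

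Over all genes, 1 passed an adjusted p of 0.05; 0 passed with a pseudocount of 0.1 or 5, with no filter or a minimum of 5 TPM, with quantile normalization and with the replicate block, and 0 to 1 with a library left out. At an unadjusted p under 0.05 these were 656 genes, 1314 with no filter and 412 with a minimum of 5 TPM, where the number of genes tested differs. The causes of the other changes were not tested. Replicate numbers did not pair the libraries (correlation of same-numbered deviations -0.049), and the replicate block changed no call of the 6 genes. With median ratios and without mitochondrial genes, the summed CIP/KIP, INK4 and pocket protein levels moved by less than the spread between replicates. The CIP/KIP sum holds CDKN1A and CDKN1B only and leaves out CDKN1C. The sign of the difference (KO+OE minus control) turned for CIP/KIP, from -1.57 to 0.0852 TPM without mitochondrial genes. For INK4 the sign turned from -0.01 to 0.0347 TPM with median ratios and 0.0346 TPM without mitochondrial genes. Of the medians over the 6 tested genes and the lists, 83 moved by less than the spread of their genes. The 1 that moved by more was that of the Polycomb list with a minimum of 5 TPM, at -0.135, where fewer genes are left. Signs of some medians still turned. That of the 6 tested genes went from -0.01 to 0.037 without control replicate 1. That of the list for turnover of CDK inhibitors went from 0.002 to -0.032 without control replicate 2. The limit is the level: below 1 TPM, RBL1 differed 20.0-fold between libraries, and changes of RB1, RBL1, CDKN2B and CDKN2C were not detectable.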
